A study of Vitis vinifera with 36 samples.

Results

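The 9 genes described here belong to the proanthocyanidin (condensed tannin) and flavonol branches of flavonoid synthesis in the grape berry. They were taken by identifier from the 27751 genes of the deposited table. The list was chosen with earlier results of these data known, and all 9 are described whatever their values. For proanthocyanidins they are the enzyme genes ANR (VIT_00s0361g00040), LAR1 (VIT_01s0011g02960) and LAR2 (VIT_17s0000g04150) and the MYB regulator genes MYBPA1 (VIT_15s0046g00170), MYB5a (VIT_08s0007g07230) and MYB5b (VIT_06s0004g00570). For flavonols they are FLS1 (VIT_18s0001g03470), a second flavonol synthase gene named here by its identifier, VIT_18s0001g03430, and the regulator gene MYBF1 (VIT_07s0005g01210). The annotation in the table contradicted none of the 9 identifiers, and all 9 were found in the RefSeq annotation of the assembly ASM3070453v1, where 2 other genes lie between the flavonol synthase genes. The study's methods name the Vitis vinifera reference genome with no build, so the RefSeq assembly served for names and neighbours and no coordinates are given.

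Flavonoid synthesis runs through a shared trunk of enzymes from chalcone synthase to leucoanthocyanidin dioxygenase and then divides. Flavonol synthase draws dihydroflavonols off to flavonols, which screen ultraviolet light in the berry skin. Leucoanthocyanidin reductase (LAR) makes catechin and anthocyanidin reductase (ANR) makes epicatechin, the units of the tannins that grape skins and seeds are known to build mostly before veraison, the onset of colouring and softening.

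The study asked how a bud sport, a branch that arose on a vine by somatic mutation, differs from its parent during ripening. Berries of ‘Nantaihutezao’, an early-ripening bud sport (11-06-25 in the sample labels), and of its parent ‘Summer Black’ (Sanbenti in the labels) were sampled at S5 (veraison), at S6, S7, S8 and S9 (7, 14, 21 and 28 days after veraison) and at S10 (maturity), with 3 libraries per cultivar and stage and 36 in all. The vines of both cultivars were 3 years old, and the study's methods describe a plastic-film greenhouse, pericarp RNA and 30 berries picked from a pair of clusters at each sampling, while the labels give the organ as berries. The methods call the 3 libraries of a group biological replicates, but neither source says that they came from separate vines, and the p-values measure only the spread between these libraries.

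Between 15323095 and 20469617 reads were counted on genes per library. All 36 libraries were closer to their own group than to any other. The ‘Summer Black’ S5 libraries stood apart, with a correlation of at most 0.943 with any library of another group, where each library of the other groups reached at least 0.974, so the S5 comparisons are read beside the later ones throughout. By a chi-square of their counts, replicate a of ‘Summer Black’ also lay apart from b and c at S8 (16.7 and 18.8 per gene, against 2.83 between b and c) and at S9 (25.4 and 28.8, against 4.77). Without it, the log2 fold change of LAR1 at S8 was -1.81, and VIT_18s0001g03430 had 1.54 at that stage and 1.09 at S9, all still called, while MYBF1 was called at S8 too. The 5 ripening-berry marker genes summed to between 8063 and 20457 CPM (counts scaled to library size) in ‘Nantaihutezao’ libraries and between 956 and 12597 CPM in ‘Summer Black’ libraries. The lowest ‘Summer Black’ sums, up to 975 CPM, were those at S5, against 8063 to 8248 CPM in ‘Nantaihutezao’ at that stage. Most of the sum over all libraries came from the grip22 gene VIT_06s0004g02560, with a mean of 11394 CPM, against 622 CPM for the next gene.

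Per transcript length, MYBPA1 and MYB5b held the highest group means of the 9 genes except in both cultivars at S5 and in ‘Nantaihutezao’ at S10, and FLS1 and MYBF1 the lowest in all 12 groups. On the deposited FPKM scale, group means of MYBPA1 ran from 22.0 to 247 FPKM in ‘Nantaihutezao’ and from 34.1 to 148 FPKM in ‘Summer Black’. Those of MYB5b ran from 34.4 to 70.8 FPKM in ‘Nantaihutezao’ and from 43.4 to 78.1 FPKM in ‘Summer Black’. At S5 LAR2 came above MYB5b in both cultivars, with 43.4 FPKM in ‘Nantaihutezao’ and 118 FPKM in ‘Summer Black’. FLS1 stayed at or below 0.835 FPKM and MYBF1 at or below 2.24 FPKM in all 12 group means. All other levels below are in CPM with TMM scaling between libraries, which compares groups for 1 gene and not genes with each other.

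**Figure D1:**
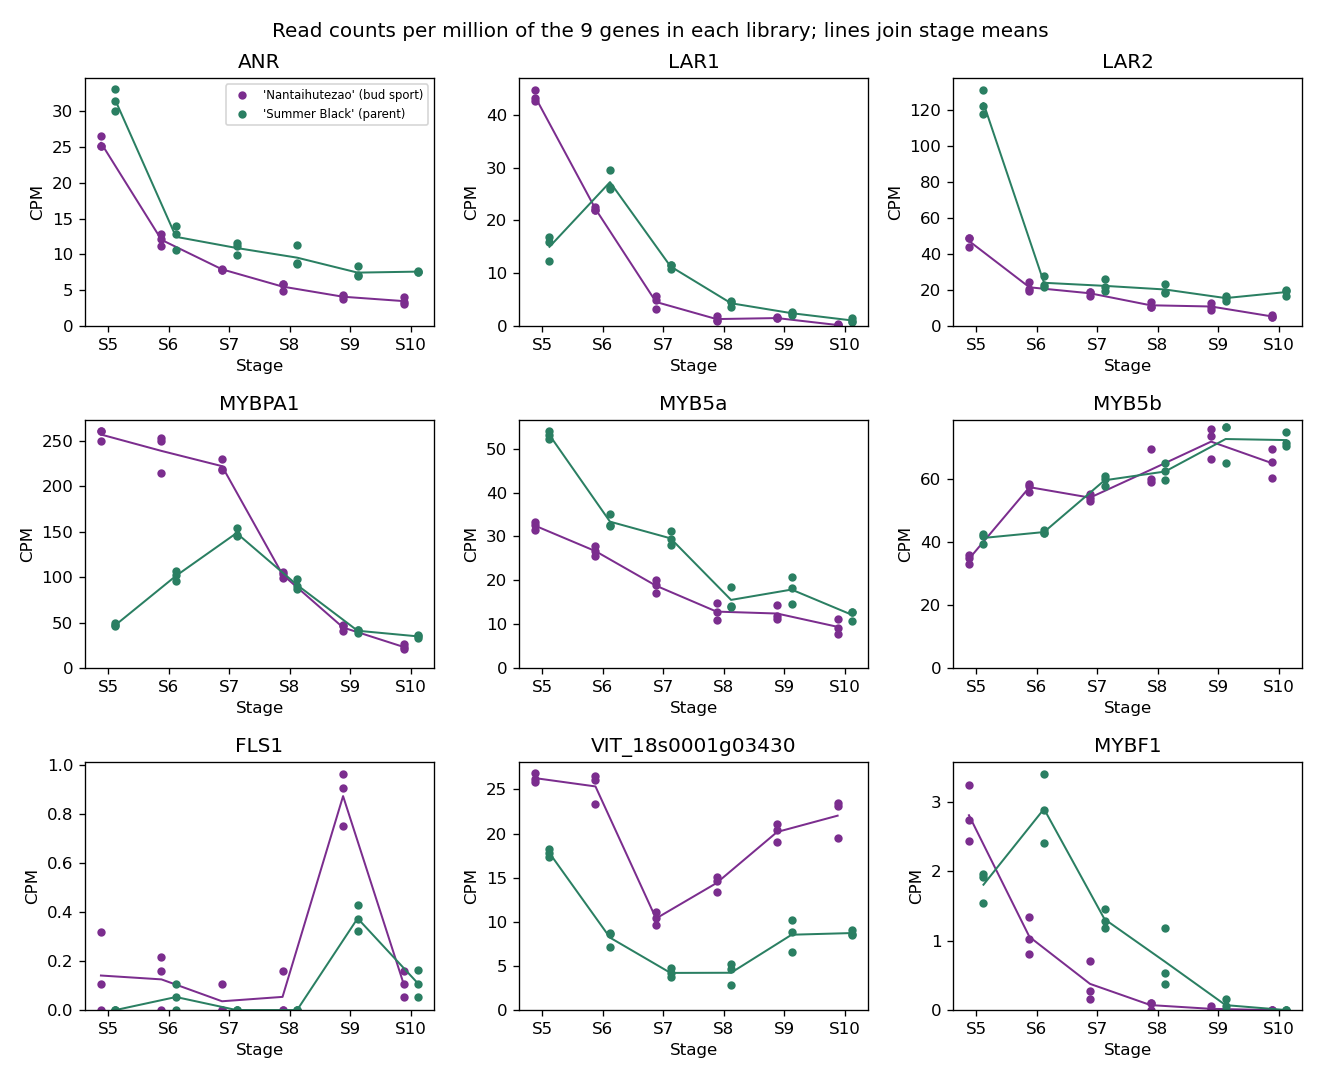
Each panel plots 1 gene, with the stage on the x axis and the level in CPM (linear, from 0) on the y axis, ‘Nantaihutezao’ in purple left of ‘Summer Black’ in green, each point 1 library and each line joining the means of 3. VIT_18s0001g03430 lies higher in ‘Nantaihutezao’ at all 6 stages, MYBPA1 peaks at S5 in ‘Nantaihutezao’ and at S7 in ‘Summer Black’, and MYB5b alone has a higher mean at S10 than at S5 in both.

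A gene was called at a stage when its false discovery rate (FDR, edgeR quasi-likelihood test with Benjamini-Hochberg adjustment over all genes tested) was below 0.05 and its log2 fold change, ‘Nantaihutezao’ over ‘Summer Black’, was beyond 1 in either direction. At S5, 3 of the 8 members tested were called, 2 higher and 1 lower, where 16.1% of all genes tested were called (7.51% higher and 8.63% lower). The S6 comparison gave 3 of 8, again 2 higher and 1 lower, where 6.57% of all genes were called (2.69% higher and 3.89% lower). Of 8 members tested at S7, 1 was called higher and 2 lower, where 8.02% of all genes were called (3.47% higher and 4.55% lower). Fewer members were called at S8, 1 higher and 1 lower of 7, where 6.46% of all genes were called (2.71% higher and 3.76% lower), and S9 had 1 of 8, a higher one, where 5.29% were called and 3.44% higher. Maturity, S10, had 4 of 7, 1 higher and 3 lower, where 8.69% of all genes were called (3.59% higher and 5.1% lower). When the fold change itself was tested against the threshold (glmTreat in edgeR), 0 members were left at S7 and 0 at S9, 1 at S8 and 2 at S10, while 3 members at S7 and 1 at S9 had an unadjusted p below 0.05 in that test and DESeq2 called 3 at S7 and 1 at S9. At S8 DESeq2 called 3 members, MYBF1 being the further one. The members missing from the edgeR tests had too few reads for its filter, FLS1 at every stage but S9 and MYBF1 at S8, S9 and S10. Over the members tested, the median log2 fold change lay between -0.59 at S10 and 0.16 at S5, and that of all genes between -0.02 and 0.01.

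LAR1 encodes one of the grape leucoanthocyanidin reductases, and its cultivar difference had opposite signs at S5 and at maturity. At S5 it had 43.1, 44.7 and 42.6 CPM in ‘Nantaihutezao’, against 15.9, 12.3 and 16.8 CPM in ‘Summer Black’. All libraries of ‘Nantaihutezao’ were above those of ‘Summer Black’, with a mean 2.91-fold higher (log2 fold change 1.54 ± 0.08 SE, FDR 2.01e-10 in edgeR). At S6 the order was turned, with 22.2 ± 0.274 CPM in ‘Nantaihutezao’ and 27.2 ± 1.94 CPM in ‘Summer Black’ (SD, n = 3 each), although the log2 fold change of -0.30 was within the threshold. LAR1 was then called lower in ‘Nantaihutezao’ at S7 (log2 fold change -1.31 ± 0.16 SE, FDR 1.89e-05) and at S8 (-1.70 ± 0.25 SE, FDR 0.00034). The -0.68 at S9 had an FDR of 0.086. At S10 the reads had nearly run out, with 2, 3 and 6 reads in ‘Nantaihutezao’ libraries, against 29, 13 and 17 reads in ‘Summer Black’ libraries, and LAR1 was called lower again (-2.40 ± 0.53 SE on the log2 scale, FDR 0.00139). The ranges of the cultivars did not overlap at any of the 6 stages, a separation for which the share of all genes was not counted.

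LAR2, the second leucoanthocyanidin reductase gene, was called lower in ‘Nantaihutezao’ at S5 and S10, the ends of the series, and at no stage between them. At S5 it had 49.3, 48.8 and 44.1 CPM in ‘Nantaihutezao’, against 123, 132 and 118 CPM in ‘Summer Black’ (log2 fold change -1.38 ± 0.05 SE, FDR 2.79e-12). No ‘Nantaihutezao’ library came near the lowest of ‘Summer Black’, which at S5 held the highest LAR2 level of the 12 groups. At S6 the ranges overlapped (log2 fold change -0.16, FDR 0.26). At S7, S8 and S9 the log2 fold changes were -0.30, -0.82 and -0.51, within the threshold and with no overlap. At S10 LAR2 had 5.05, 5.08 and 6.06 CPM in ‘Nantaihutezao’, against 19.77, 17.00 and 20.02 CPM in ‘Summer Black’. This was the largest LAR2 difference of the 6 stages (-1.82 ± 0.11 SE on the log2 scale, FDR 1.11e-09). Thus at S5 the LAR genes were called in opposite directions, LAR1 higher and LAR2 lower in ‘Nantaihutezao’, and at S10 both were called lower.

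ANR, the gene of anthocyanidin reductase, had a lower mean in ‘Nantaihutezao’ at all 6 stages, and the difference passed the threshold only at S10. Its log2 fold changes from S5 to S10 were -0.30, -0.05, -0.46, -0.79, -0.85 and -1.13. At S5 it had 25.1, 26.5 and 25.2 CPM in ‘Nantaihutezao’, against 31.4, 33.1 and 30.0 CPM in ‘Summer Black’. At S10 it had 3.39, 4.01 and 3.06 CPM in ‘Nantaihutezao’, against 7.59, 7.55 and 7.64 CPM in ‘Summer Black’ (SE 0.15, FDR 9.29e-06). The cultivars overlapped at S6 alone. From S8 on, all ‘Nantaihutezao’ libraries held less ANR than any ‘Summer Black’ library.

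Seed and green-tissue transcripts were summed beside these genes, since tannins are also made in seeds. Of 26 genes taken as seed genes because their annotation names a seed globulin, vicilin, legumin or oleosin, 18 had a read in some library. The largest part of their sum came from the basic 7S globulin gene VIT_07s0104g00180, with a mean of 40.2 CPM over all libraries. It was followed by a gene annotated as vicilin-like antimicrobial peptides (VIT_07s0151g00640, 8.69 CPM, up to 499 reads) and an oleosin gene (VIT_02s0234g00110, 7.79 CPM, up to 400 reads). The sums thus depend mostly on the 7S globulin gene, and whether it marks seed tissue here was not tested. Among the genes at 0 were the legumin A-like VIT_07s0005g03410 and the vicilin-like VIT_06s0004g03260. The seed genes summed to between 60.5 and 69.6 CPM in ‘Nantaihutezao’ and between 79.7 and 84.9 CPM in ‘Summer Black’ at S5, the same direction as ANR and LAR2. At S6 they summed to between 62.9 and 65.1 CPM in ‘Nantaihutezao’ and between 65.8 and 71.0 CPM in ‘Summer Black’. At S7 (67.9 to 74.6 CPM in ‘Nantaihutezao’ and 57.0 to 59.5 CPM in ‘Summer Black’) and S8 (72.3 to 77.5 CPM in ‘Nantaihutezao’ and 59.5 to 64.6 CPM in ‘Summer Black’) they were higher in ‘Nantaihutezao’, where ANR, LAR1 and LAR2 were lower, and at S9 the ranges overlapped. At S10 they summed to between 58.2 and 61.2 CPM in ‘Nantaihutezao’ and between 48.1 and 52.6 CPM in ‘Summer Black’, the opposite direction to ANR and LAR2. Of 22 green-tissue genes (Rubisco small chain and chlorophyll a-b binding proteins), 21 had a read, and they summed to between 1147 and 1247 CPM in ‘Nantaihutezao’ and between 1854 and 1875 CPM in ‘Summer Black’ at S5. They were lower in ‘Nantaihutezao’ at S6 as well (1114 to 1149 CPM, against 1670 to 1726 CPM in ‘Summer Black’), at S7 (1149 to 1201 CPM, against 1976 to 2182 CPM in ‘Summer Black’) and at S8 (614 to 674 CPM, against 904 to 1073 CPM in ‘Summer Black’). The means of LAR1, ANR, LAR2 and MYB5a were also lower at S6, S7 and S8, but the ranges of ANR and LAR2 overlapped at S6 and those of MYB5a at S8. At S5 LAR1 went the other way and was called higher. At S9 (642 to 715 CPM in ‘Nantaihutezao’ and 626 to 860 CPM in ‘Summer Black’) and at S10 (482 to 543 CPM in ‘Nantaihutezao’ and 486 to 495 CPM in ‘Summer Black’) the green-tissue sums overlapped. The part of these tissues in the differences was not tested, and in RNA of a whole tissue fewer cells of a type and less RNA per cell cannot be told apart.

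MYBPA1, known in grape as an activator of the ANR and LAR1 promoters, showed the largest called difference of any member at S5. It had 261, 261 and 250 CPM in ‘Nantaihutezao’ at S5, against 47.2, 49.2 and 45.9 CPM in ‘Summer Black’, 5.44-fold higher (log2 fold change 2.44 ± 0.04 SE, FDR 1.32e-16). At S6 it had 215, 250 and 253 CPM in ‘Nantaihutezao’, against 107, 103 and 95.5 CPM in ‘Summer Black’ (log2 fold change 1.23 ± 0.07 SE, FDR 4.82e-09). The distance then shrank, with log2 fold changes of 0.58 at S7, 0.17 at S8 and 0.13 at S9, where the ranges overlapped and the FDR was 0.32. At S10 the order was turned within the threshold, with 23.3 ± 2.67 CPM in ‘Nantaihutezao’ and 34.9 ± 1.61 CPM in ‘Summer Black’ (SD, n = 3 each) and a log2 fold change of -0.59 (FDR 1.41e-05). Of the 12 groups, ‘Nantaihutezao’ at S5, S6 and S7 stood highest, and in that order S5 overlapped with S6 and S6 with S7. The next group, ‘Summer Black’ at S7, lay apart from those above and below it.

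MYBPA1 and the enzyme genes did not differ in parallel. At S5 MYBPA1 and LAR1 were called higher in ‘Nantaihutezao’, LAR2 was called lower, and ANR was lower by -0.30 on the log2 scale. At S6 MYBPA1 was 2.35-fold higher in ‘Nantaihutezao’, while none of ANR, LAR1 and LAR2 was called. Over the 12 group means of log2 CPM, Pearson's r of MYBPA1 was 0.73 with LAR1, 0.46 with ANR and 0.31 with LAR2, while ANR and LAR2 had an r of 0.96. The 12 means share 2 cultivars and 6 stages, so these values describe the profiles and carry no p.

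MYB5a and MYB5b are close relatives of each other, known in grape as regulators of several flavonoid enzyme genes, and neither was called between the cultivars at any stage. MYB5a had a lower mean in ‘Nantaihutezao’ at all 6 stages, with log2 fold changes between -0.71 and -0.27 and an FDR above 0.05 at S8 only (0.153). At S5, where it was furthest apart, it had 31.6, 32.6 and 33.2 CPM in ‘Nantaihutezao’, against 54.2, 53.0 and 52.2 CPM in ‘Summer Black’ (SE 0.05, FDR 6.55e-09). The cultivars overlapped at S8 and S10 only. MYB5b had a higher mean in ‘Nantaihutezao’ at S6 and S8 and a lower one at the other 4 stages, and its log2 fold changes lay between -0.25 and 0.41. At S6 it had 58.6, 56.1 and 57.8 CPM in ‘Nantaihutezao’, against 44.0, 43.0 and 42.8 CPM in ‘Summer Black’ (FDR 3.17e-05). In the order of the 12 MYB5b groups, 7 of the 11 neighbouring pairs overlapped.

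**Figure D2:**
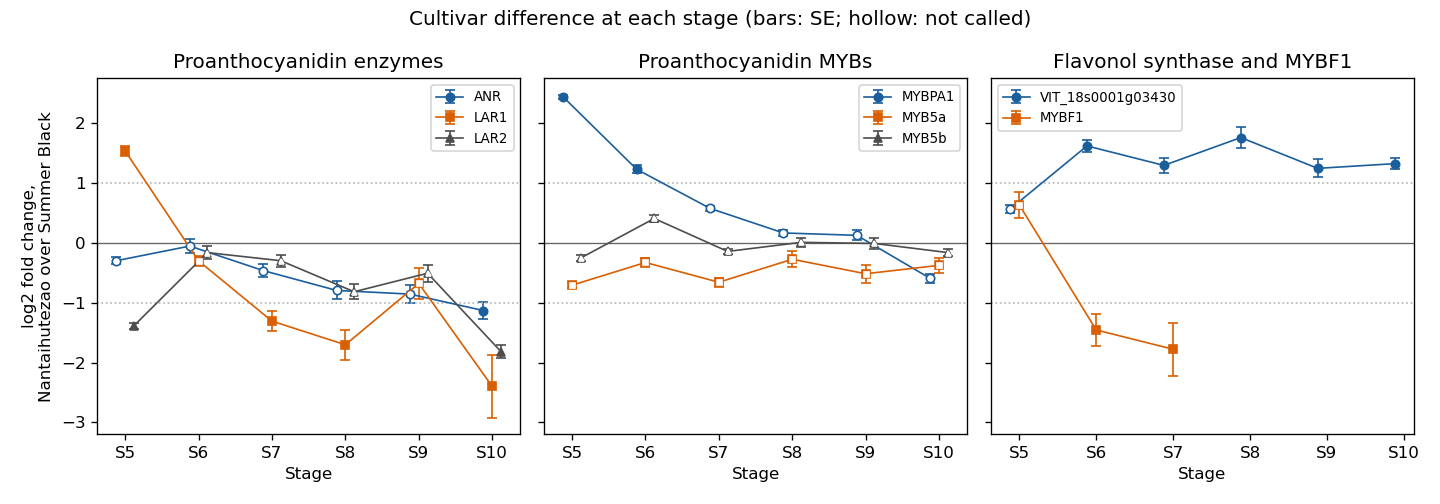
The log2 fold change of ‘Nantaihutezao’ over ‘Summer Black’ (y axis) is plotted at each stage (x axis) for 8 genes where tested (FLS1, tested at S9 alone, is not drawn), with SE bars, dotted lines at the threshold of 1 and hollow symbols where a difference was not called. MYBPA1 declines from 2.44 at S5 to -0.59 at S10, the proanthocyanidin enzyme genes end at -1.13, -2.40 and -1.82, and VIT_18s0001g03430 stays between 0.57 and 1.76.

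VIT_18s0001g03430, annotated as a flavonol synthase, was the one member with a higher level in every ‘Nantaihutezao’ library than in any ‘Summer Black’ library of the same stage at all 6 stages. The share of all genes that did the same was not counted, so this does not set the gene apart from genes outside the members. At S5 it had 25.9, 26.1 and 26.9 CPM in ‘Nantaihutezao’, against 18.3, 17.3 and 17.8 CPM in ‘Summer Black’, within the threshold (log2 fold change 0.57, FDR 1.56e-06). It was called higher at each of the 5 later stages, with log2 fold changes of 1.62, 1.30, 1.76, 1.25 and 1.33 from S6 to S10, SEs between 0.10 and 0.18 and FDRs between 9.28e-09 and 0.000202. At S6 it had 26.5, 26.1 and 23.4 CPM in ‘Nantaihutezao’, against 7.20, 8.75 and 8.68 CPM in ‘Summer Black’, and at S8 it had 14.6, 13.4 and 15.1 CPM in ‘Nantaihutezao’, against 2.84, 5.20 and 4.64 CPM in ‘Summer Black’. At S10 it had 23.1, 23.5 and 19.5 CPM in ‘Nantaihutezao’, against 8.51, 8.58 and 9.10 CPM in ‘Summer Black’. In both cultivars the mean was lowest at S7, where ‘Summer Black’ stood level with its S8, and it was higher again at S9 and S10. The lowest ‘Nantaihutezao’ mean, 10.4 ± 0.763 CPM at S7, was still above every ‘Summer Black’ mean but that at S5, 17.8 ± 0.478 CPM (SD, n = 3 each).

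FLS1, the other flavonol synthase gene, was close to absent. No ‘Nantaihutezao’ library had more than 18 reads and no ‘Summer Black’ library more than 8, and 6 of 18 ‘Nantaihutezao’ libraries and 10 of 18 ‘Summer Black’ libraries had none, where 3 reads, the limit that a count of 0 allows, correspond to between 0.158 and 0.162 CPM. Its reads gathered at S9, with 14, 18 and 17 in ‘Nantaihutezao’, against 6, 8 and 7 in ‘Summer Black’. The groups did not overlap there, but the log2 fold change of 1.22 (SE 0.41) had an FDR of 0.0545 and was not called. How reads shared by neighbouring flavonol synthase copies were counted is not given in the sources used here. The other flavonol synthase genes of the table, VIT_18s0001g03490 and VIT_18s0001g03510, averaged 0.0 and 0.306 reads per library.

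MYBF1, known in grape as an activator of flavonol synthase, was called in the opposite direction to VIT_18s0001g03430 at S6 and S7. At S6 it had 25, 19 and 15 reads in ‘Nantaihutezao’, against 54, 64 and 45 reads in ‘Summer Black’ (log2 fold change -1.45 ± 0.27 SE, FDR 0.000631). At S7 it had 13, 5 and 3 reads in ‘Nantaihutezao’, against 27, 24 and 22 reads in ‘Summer Black’ (log2 fold change -1.78 ± 0.44 SE, FDR 0.00491). All ‘Nantaihutezao’ libraries were below those of ‘Summer Black’ at both stages. At S8 it had 2, 2 and 0 reads in ‘Nantaihutezao’, against 7, 10 and 22 reads in ‘Summer Black’, at least 4.32-fold lower when ‘Nantaihutezao’ is set at 3 reads per library, and 2.83-fold without parent replicate c, the library with 22 reads. The low-count filter kept MYBF1 out of the edgeR test at S8, while DESeq2, run without it, called it lower (FDR 0.00997), as did edgeR without the filter (FDR 0.0132). At S5 the difference ran the other way within the threshold, with 46, 52 and 61 reads in ‘Nantaihutezao’, against 37, 36 and 29 reads in ‘Summer Black’ (log2 fold change 0.64, FDR 0.0188). At S10 all 6 libraries had no read. Over the 12 group means, MYBF1 had an r of -0.06 with VIT_18s0001g03430 and of 0.94 with LAR1.

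An interaction term of stage with cultivar, fitted over all 36 libraries, tested whether the cultivar difference varied between stages. It passed for 7 of the 9 members, as it did for 63.7% of all genes tested. MYBPA1 (FDR 1.00e-22), LAR1 (FDR 1.15e-14) and LAR2 (FDR 1.38e-09) had the lowest FDRs, ANR, MYB5b, VIT_18s0001g03430 and MYBF1 followed, and MYB5a (FDR 0.0649, or 0.0243 with upper-quartile scaling) and FLS1 (FDR 0.299) were not called. MYBF1 lost its call without replicate c (FDR 0.0776). Without the S5 libraries, an alternative chosen after the data were seen, 5 members were called, and VIT_18s0001g03430 (FDR 0.104) and MYBF1 (FDR 0.557) were not. The share of all genes that passed without S5 is not given, and the 63.7% does not apply to that count. The difference at S10 minus that at S5 was -3.93 on the log2 scale for LAR1 (SE 0.44, FDR 3.07e-09) and -3.02 for MYBPA1 (SE 0.10, FDR 2.88e-23), the only members called in that contrast, where 16.9% of all genes were called and 10.2% lower.

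Within a cultivar, the tannin enzyme genes fell over ripening in both. In ‘Nantaihutezao’, 6 of 9 members were called between S10 and S5, all lower at S10, where 28.8% of all genes tested were called and 17.6% lower. In ‘Summer Black’, 6 of 8 were called, all lower at S10, where 32.1% of all genes were called and 19.2% lower. ANR fell with a log2 fold change, S10 over S5, of -2.88 in ‘Nantaihutezao’ and of -2.05 in ‘Summer Black’. For LAR2 the values were -3.14 in ‘Nantaihutezao’ and -2.71 in ‘Summer Black’, and for MYB5a -1.80 in ‘Nantaihutezao’ and -2.13 in ‘Summer Black’. Of the 3 enzyme genes LAR1 fell most steeply, to 2, 3 and 6 reads at S10, against 814, 847 and 804 reads at S5 in ‘Nantaihutezao’, and to 29, 13 and 17 reads at S10, against 301, 232 and 315 reads at S5 in ‘Summer Black’.

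The remaining members differed in their course. MYBPA1 fell in ‘Nantaihutezao’ (-3.47 on the log2 scale, S10 over S5, FDR 7.29e-22), while in ‘Summer Black’ the difference of -0.44 was within the threshold. There MYBPA1 first rose between S5 and S6 (1.09 on the log2 scale, FDR 6.98e-12, in a step where 17.8% of all genes were called) and stood at 149 ± 4.71 CPM at S7 (SD, n = 3). LAR1 likewise stood highest at S5 in ‘Nantaihutezao’ and at S6 in ‘Summer Black’, 27.2 CPM, although the step of 0.85 on the log2 scale between these stages in ‘Summer Black’ was not called. VIT_18s0001g03430 fell between S6 and S7 in ‘Nantaihutezao’ (-1.28 on the log2 scale, FDR 1.75e-11, in a step where 7.73% of all genes were called) and between S5 and S6 in ‘Summer Black’ (-1.13, FDR 4.25e-06). MYBF1 was at least 17.4-fold lower at S10 than at S5 in ‘Nantaihutezao’ and at least 11.2-fold lower in ‘Summer Black’, counting S10 at 3 reads per library. MYB5b alone was higher at S10 than at S5 in both, by 0.90 on the log2 scale in ‘Nantaihutezao’ (FDR 1.93e-11) and 0.81 in ‘Summer Black’ (FDR 6.96e-10), both within the threshold.

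The other enzyme genes of the pathway, 31 by annotation from chalcone synthase to leucoanthocyanidin dioxygenase with further ANR and flavonol synthase copies, served as the setting for these branches. The list does not hold VIT_16s0022g01070, which the study names among its differing chalcone synthase genes. The largest class in it is F3'5'H, a flavonoid hydroxylase with most of its copies in a cluster on chromosome 6, so this class weighs most in the counts. At S5, all 14 of the 31 that could be tested were called higher in ‘Nantaihutezao’, where 7.51% of all genes were called higher. Their median log2 fold change was 2.99. For example, chalcone synthase VIT_05s0136g00260 had 4782 ± 185 CPM in ‘Nantaihutezao’ and 485 ± 7.54 CPM in ‘Summer Black’, and leucoanthocyanidin dioxygenase VIT_02s0025g04720 had 2826 ± 162 CPM in ‘Nantaihutezao’ and 213 ± 2.43 CPM in ‘Summer Black’ (SD, n = 3 each). At the same stage LAR2 was called lower, ANR had -0.30 and VIT_18s0001g03430 had 0.57 on the log2 scale. LAR1, at 1.54, was the only enzyme gene of the 9 called in the direction of the trunk. None of 16 tested was called at S6 by edgeR and none by DESeq2, although 13 had an unadjusted p below 0.05 in edgeR and 12 in DESeq2. Later the calls were all lower in ‘Nantaihutezao’, 3 of 15 tested at S7, 6 of 15 at S8, 7 of 15 at S9 and 10 of 15 at S10. Of all genes tested, 8.02%, 6.46%, 5.29% and 8.69% were called in either direction at S7, S8, S9 and S10. The pathway genes tested had a median log2 fold change of -1.29 at maturity, when VIT_18s0001g03430 was called higher and ANR, LAR1 and LAR2 lower.

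**Figure D3:**
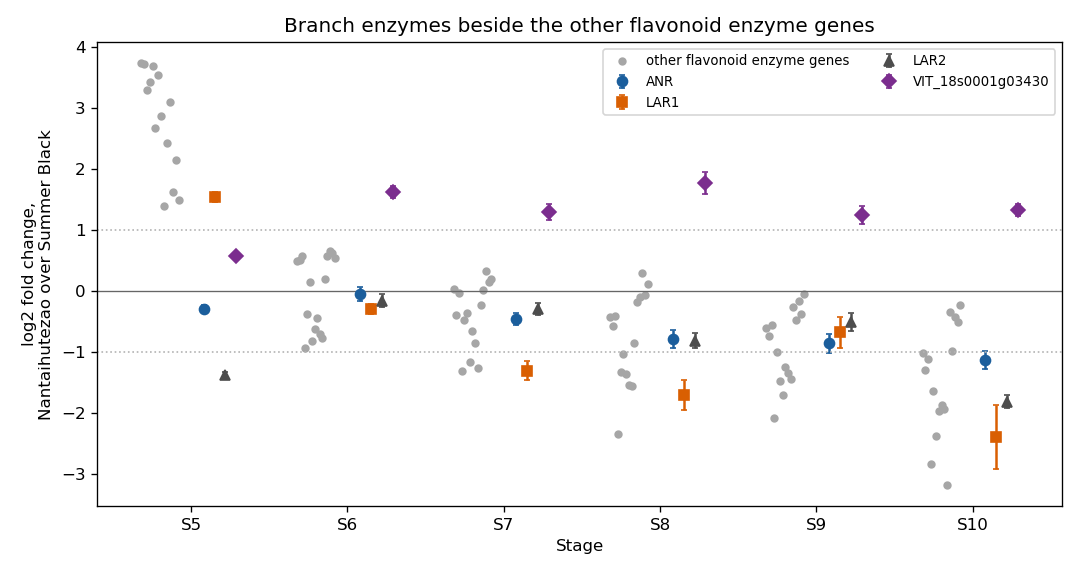
The log2 fold change of ‘Nantaihutezao’ over ‘Summer Black’ (y axis) at each stage (x axis) is plotted for ANR, LAR1, LAR2 and VIT_18s0001g03430 (coloured symbols, SE bars) beside the other flavonoid enzyme genes tested (grey points). At S5 the 14 grey points all lie above 1 while LAR2 lies at -1.38, and at S10 they all lie below 0 while VIT_18s0001g03430 lies at 1.33.

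The most abundant genes of the other classes at S5 also included chalcone isomerase VIT_13s0067g03820 (log2 fold change 2.42), flavanone 3-hydroxylase VIT_04s0023g03370 (3.72), the flavonoid hydroxylases VIT_17s0000g07210 (1.63) and VIT_06s0009g02840 (3.69) and dihydroflavonol reductase VIT_18s0001g12800 (2.15). Their differences all turned below 0 at S10, between -1.64 and -0.35. Of 10 further regulator genes by annotation, between 3 and 5 could be tested at a stage. At S5, S7 and S8, 1 was called lower in ‘Nantaihutezao’ at each stage, at S9 and S10 1 was called higher, and at S6 0 were called. The relatives of the transcription factor TT8 (VIT_07s0104g00090) and of the WD-repeat protein TTG1 (VIT_16s0098g00870), which in Arabidopsis act together with a MYB on tannin genes, were not called at any stage. The calls at S7 and S8 were therefore of other regulator genes. The MYB genes VIT_11s0016g01300 and VIT_11s0016g01310, annotated as TT2-like and TT2, had few reads, with means of 7.31 and 8.25 per library. The MYB gene VIT_05s0020g01100, annotated as transcription repressor MYB5 by one of the table's sources and as MYB86 by the others, was called lower in ‘Nantaihutezao’ at S5 (-1.72, FDR 1.9e-08) and higher at S9 (1.16) and S10 (1.22).

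Because ‘Nantaihutezao’ ripens earlier, its stages were also set against the next and the following stage of ‘Summer Black’, in 9 comparisons within 1 fit of all libraries. The labels count the days after veraison for each cultivar, and neither source says whether equal stages of the cultivars fell on the same date. These share libraries with each other and with the comparisons at equal stages, so the values stand side by side and are no independent evidence. MYBPA1 and VIT_18s0001g03430 were above 0 on the log2 scale in all 9, and each was called higher in 6 of them. MYBPA1 ranged from 0.36 (S9 against S10) to 2.44 (S7 against S9), and VIT_18s0001g03430 from 0.28 (S7 against S9, FDR 0.0813) to 2.64 (S5 against S7). MYB5a was not called in any of the 9, and lay between -0.47 (S8 against S9) and 0.78 (S6 against S8). MYB5b was not called either, with values between -0.78 and -0.01. MYBF1 was called lower in 0 of the 9 and higher in 2, S5 against S7 (1.10, FDR 0.0171) and S7 against S9 (2.30, FDR 0.0141). Each of these MYBF1 calls was lost in some fit with a replicate left out, and S6 against S7 had -0.31 (FDR 0.565).

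For the tannin enzymes the result depended on which stages were set together. ‘Nantaihutezao’ at S5 held 25.6 ± 0.781 CPM of ANR, against 12.5 ± 1.76 CPM in ‘Summer Black’ at S6 (SD, n = 3 each), called higher (log2 fold change 1.04 ± 0.10 SE, FDR 2.38e-10). LAR2 had 0.98 in that comparison, within the threshold, and 1.08 (FDR 1.04e-09) against S7. In these comparisons 3 and 6 of 9 members were called, all higher, where 3.86% and 10% of all genes were called. With ‘Nantaihutezao’ S6, 2 members were called against S7 (8.01% of all genes) and 4 against S8 (8.49%). With S7, 2 were called against S8 (5.83%) and 3 against S9 (6.96%), with S8, 2 against S9 (5.25%) and 1 against S10 (4.61%), and with S9, 2 against S10 (5.18%). LAR1 was called higher for S5 against S7 (1.94, FDR 1.16e-14) and S6 against S8 (2.36, FDR 3.61e-15), and lay between -0.88 and 0.97 in the other comparisons. At S9 against S10, ANR (-0.89) and LAR2 (-0.80) were lower in ‘Nantaihutezao’, within the threshold. Without replicate b, 3 members were called for S5 against S7, and LAR2 (0.97) was not among them, and ANR had 0.94 for S5 against S6 without replicate c, within the threshold. The calls of FLS1 among these counts rest on groups with at most 18 reads in any library, and no fold change is given for them.

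**Figure D4:**
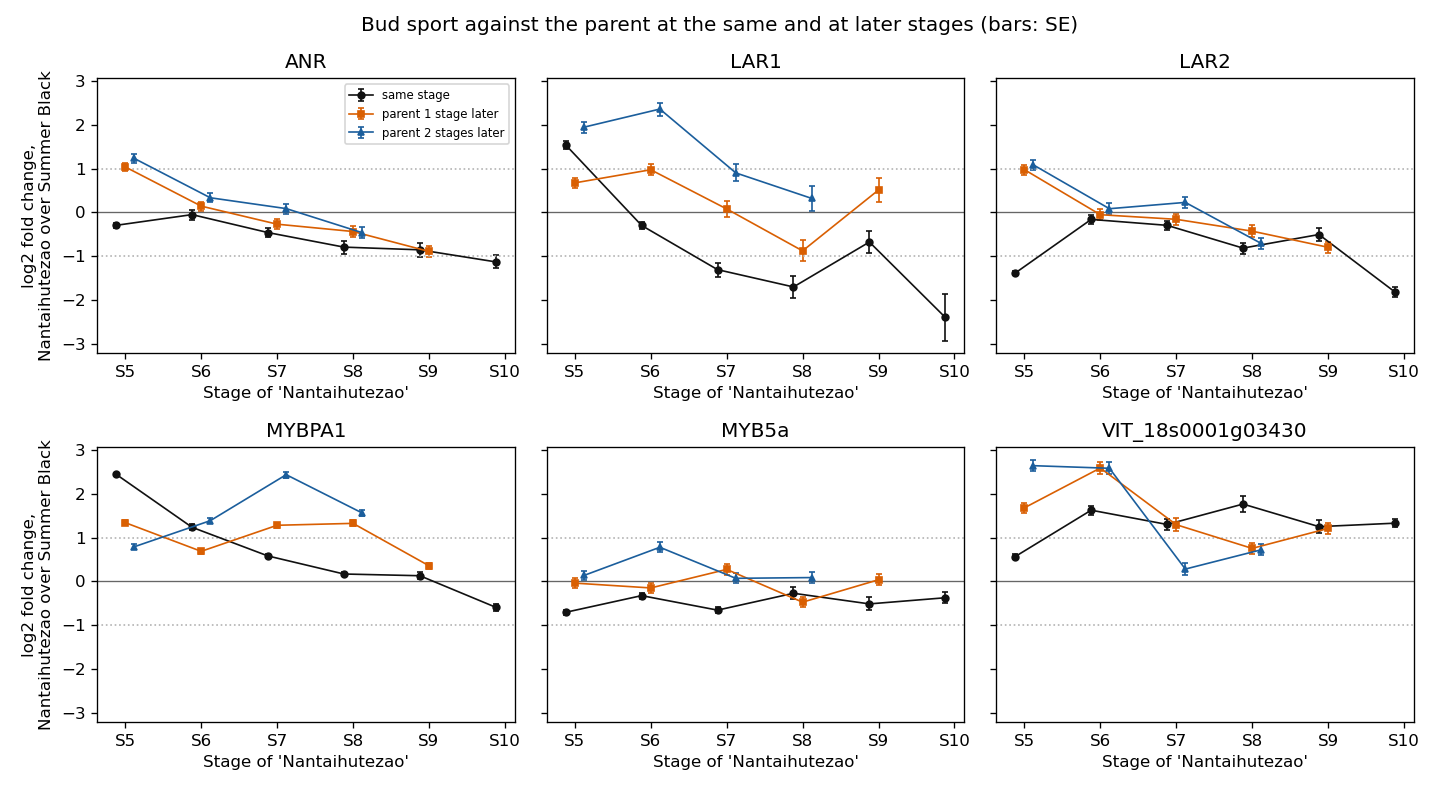
For 6 genes, the log2 fold change of ‘Nantaihutezao’ at a stage (x axis) over ‘Summer Black’ at the same stage (black, fits of 6 libraries) or at 1 (orange) or 2 (blue) stages later (1 fit of 36 libraries) is plotted with SE bars and dotted lines at the threshold of 1. All points of MYBPA1 and VIT_18s0001g03430 set against later stages lie above 0, and those of MYB5a lie between -0.47 and 0.78.

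For each member, the 3 genes most like it were found by Pearson's r of log2 CPM over the 12 group means. No member was among the closest genes of another. ANR was most like a phosphoacetylglucosamine mutase gene (VIT_02s0012g00620, r = 0.985), a short-chain dehydrogenase TIC 32 gene (VIT_08s0040g03400, 0.982) and an aquaporin NIP1-2 gene (VIT_10s0003g01830, 0.971). LAR1 was most like the aquaporin gene PIP1;2 (VIT_15s0046g02420, 0.986), a galacturonosyltransferase-like gene (VIT_18s0001g11860, 0.986) and a pectate lyase gene (VIT_01s0137g00240, 0.983). LAR2 was most like a receptor-like kinase gene (VIT_05s0020g04610, 0.98), an unnamed gene (VIT_08s0007g00160, 0.971) and a calcineurin B-like gene (VIT_16s0098g01870, 0.97).

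MYB5a was most like 3 ribosomal protein genes, S3-3 (VIT_09s0002g01460, 0.99), L18-2 (VIT_07s0005g00690, 0.988) and L8 (VIT_04s0023g03210, 0.987). MYBPA1 was most like an unnamed gene (VIT_03s0063g01230, 0.978), a cold-regulated membrane protein gene (VIT_03s0063g01870, 0.974) and an aquaporin gene (VIT_13s0019g04280, 0.968). MYB5b was most like a RIC1 homolog gene (VIT_15s0046g01890, 0.962), an uncharacterised gene (VIT_06s0061g00160, 0.956) and a protein kinase gene (VIT_06s0061g01050, 0.954). MYBF1 was most like a RING finger protein gene (VIT_06s0061g00710, 0.988), a homocysteine methyltransferase gene (VIT_07s0151g00520, 0.985) and a chloroplast translocon gene (VIT_06s0004g00670, 0.983).

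The flavonol synthase genes had looser neighbours. VIT_18s0001g03430 was most like a chloroplast outer envelope pore gene (VIT_18s0122g00880, 0.926), a cupredoxin gene (VIT_09s0002g06890, 0.908) and a GEM-like gene (VIT_18s0001g07130, 0.904). FLS1, with few reads, was most like an ATP sulfurylase gene (VIT_18s0001g14010, 0.883), an unnamed gene (VIT_13s0084g00150, 0.882) and a folate transporter gene (VIT_04s0023g02600, 0.861). These are descriptions over 12 means that share cultivars and stages.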

How the data were processed

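RNA of grape berries was sequenced in 36 libraries, 3 for each of 2 cultivars and 6 stages. Filtered reads were mapped by the authors with TopHat 2 to the grape genome, and their table gives unnormalized counts for every gene and library. The counter, its strand setting and the annotation release are not given in the sources used here. The same deposited table holds Cuffdiff FPKM, scaled to transcript length and library size, which served here only to compare levels between genes, and in libraries with 0 counts they can lie above 0. A further 111 deposited columns hold log2 fold changes, FDRs and direction calls of the authors' pairwise comparisons and were not used.

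The 9 members and the lists were chosen with earlier results of these data known. Groups came from the labels. Counts were filtered with filterByExpr (minimum count 10, total 15), scaled by TMM and tested by quasi-likelihood in edgeR 4.0.16 (limma 3.58.1, R 4.3.3), with Benjamini-Hochberg adjustment over all genes tested. The original DESeq was replaced by edgeR at the same thresholds. Cultivars were compared on the 6 libraries of a stage, S10 with S5 on the 18 libraries of a cultivar, and the interaction and the comparisons with later stages on all 36. The SE was taken from the log2 fold change and F. Folds against groups with at most 3 reads in every library are lower bounds, set at 3 reads per library, and such floors cover counting error only. Named besides the members were the most abundant gene of each enzyme class and the 3 genes most like each member, among genes with a mean of 1 CPM in some group (prior count 2). The regulators TT8, TTG1, VIT_05s0020g01100, VIT_11s0016g01300 and VIT_11s0016g01310 and the flavonol synthase copies at or near 0 were named after their values were seen.

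Replicates of a group differed beyond sampling noise (chi-square per gene 2.29 to 28.8), so none was counted as a duplicate. On simulated data with 100 genes changed by 1.5 and 100 by 2.5 on the log2 scale, the S5 comparison (15695 genes) called 93 and 97 of them and 8 unchanged genes, and the interaction test (16355 genes) 82 and 90 and 13 unchanged genes. Other settings tried were glmTreat, DESeq2 1.42.0, scaling by the upper quartile, all genes unfiltered, other sets of libraries in the fit, a block for the replicate letter, leaving out single replicates and, added later, the interaction without S5. Tables and figures were made with Python 3.11.15, numpy 2.4.6, pandas 2.3.3 and matplotlib 3.10.9.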

Additional observations from a re-analysis of the deposited data

Results flagged for a closer look

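For 7 of the 9 genes the cultivar difference itself differed between stages, by the interaction of cultivar and stage tested by quasi-likelihood in edgeR and adjusted after Benjamini-Hochberg over all genes, a test that 63.7% of all genes also passed. The FDRs were 1.00e-22 for MYBPA1, 1.15e-14 for LAR1, 1.38e-09 for LAR2, 2.6e-06 for MYB5b, 3.12e-06 for ANR, 3.5e-06 for VIT_18s0001g03430 and 0.00075 for MYBF1. MYBPA1 and LAR1 were called higher in ‘Nantaihutezao’ at S5, and at S10 LAR1 was called lower and MYBPA1 had a log2 fold change of -0.59.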

How the results depend on the processing

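Of 1366 values of single members under other settings, 1310 kept direction and side of the threshold, 29 lost the call, 6 gained it and 21 changed sign or fell to 0, each of the 21 a difference that was not called and with a library left out. The cause of these changes was not tested. Testing the fold change against the threshold (glmTreat) left 0 members at S7 and 0 at S9, 1 at S8 and 2 at S10, with 3 and 1 members at an unadjusted p below 0.05 at S7 and S9, and ended the calls of MYBF1 at S6, of LAR1, MYBF1 and VIT_18s0001g03430 at S7, of LAR1 at S8, of VIT_18s0001g03430 at S9 and of ANR and LAR1 at S10. With the libraries of both groups alone in the fit, ‘Nantaihutezao’ S6 against ‘Summer Black’ S7, S8 against S9 and S7 against S9 had 1 called member each, and DESeq2 had 1 for S8 against S9. Between the cultivars at S8, DESeq2, the fit without the filter and the fit of all 36 libraries each called 3 members, with MYBF1 added.

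With each replicate left out, the members called were 1 in every case for S6 against S7, 1 to 3 for S8 against S9 and 3 to 6 for S5 against S7, and 6 to 7 for the interaction, where MYBF1 was lost without replicate c (FDR 0.0776). The values that changed sign or fell to 0.0 ranged from -0.16 to 0.046 for ANR between cultivars at S6, from -0.067 to 0.058 for MYB5b at S8, from -0.087 to 0.044 for MYB5b at S9 and from -0.94 to 0.93 for FLS1 in S10 over S5 of ‘Nantaihutezao’. In ‘Nantaihutezao’ S5 against ‘Summer Black’ S6 they ranged from -0.076 to 0.019 for MYB5a and from -0.28 to 0.098 for MYBF1. For S7 against S8 the ranges were -0.077 to 0.18 for LAR1, 0.0 to 3.18 for FLS1 and -1.96 to 0.087 for MYBF1, and for S8 against S9 -0.91 to 0.85 for MYBF1. S9 against S10 gave -0.042 to 0.15 for MYB5a, -0.035 to 0.025 for MYB5b and 0.0 to 2.32 for MYBF1, S7 against S9 gave -0.11 to 0.19 for MYB5a, and S8 against S10 gave -0.21 to 0.86 for LAR1.

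The replicate letters were not treated as pairs. Deviations of same-letter libraries from their group means had r between -0.06 and 0.08 over 18 pairs, and 8 of 18 ‘Nantaihutezao’ libraries correlated best with their own letter. At S7 the same-letter r were 0.076, 0.033 and 0.074, and at S8 -0.016, -0.056 and -0.0055. These values are small and do not settle whether the letters are paired. With the letter as a block, the counts of members called were the same in the cultivar comparisons, 3 at S5 and 4 at S10 for example, and the interaction had 8, MYB5a among them (FDR 0.0372). Depth limits FLS1 throughout, MYBF1 from S8 and LAR1 at S10.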
